A study of Mus musculus with 16 samples.

Results

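Long non-coding RNAs were followed in tumours of H295R, a steroid-producing human adrenocortical carcinoma line, grown in SCID mice. The RNAs were taken by their human RefSeq identifiers from a list of 9, and the rule sets no condition on a measured value. Of these, 8 were on the array with 10 probes, out of 29094 identifiers and 34127 probes in all. They were MALAT1 (NR_002819), TUG1 (NR_002323), PVT1 (NR_003367), GAS5 (NR_002578), SNHG1 (NR_003098), SNHG5 (NR_003038), SNHG8 (NR_003584) and SNHG12 (NR_024127). The identifier listed for NEAT1, NR_028272, matched no probe, so NEAT1 was not analysed here. The symbols are those of the list, since the files themselves carry accessions only.

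All mice carried H295R tumours, were SCID, were labelled male and were dosed by mouth for 28 days. The control group received corn oil, the mitotane group the adrenolytic drug mitotane, the 9-cisRA group 9-cis retinoic acid, a ligand of the nuclear receptors RAR and RXR, and the combined group both agents. The design text counts 43 mice, and 16 arrays were listed, 4 per group with 1 of each group on each of 4 slides. Scanner data of 15 arrays were used, 4 per group but 3 for combined treatment, whose replicate 3 was taken only from the table of processed values. Replicates are numbered by slide. Whether each array held the tumour of its own mouse is not stated, so a p-value reflects only how these samples varied, which may be technical. The model is a single cell line in a host that lacks T and B cells, measured on a human array. What mouse RNA of the host adds to a human probe was not tested, and in bulk tumour RNA fewer cells of a type and less RNA per cell cannot be told apart.

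As background, long non-coding RNAs act as RNA. MALAT1 gathers in nuclear speckles, where splicing factors are stored, TUG1 takes part in the control of chromatin and of growth, and PVT1 comes from a locus that is often gained in tumours. GAS5 and the SNHG RNAs are host genes of small nucleolar RNAs, which guide the modification of ribosomal RNA and are cut from the introns. Their spliced exons start with a terminal oligopyrimidine tract, like ribosomal protein mRNAs, and are short-lived because translation exposes them to nonsense-mediated decay. GAS5 accumulates in cells that stop growing and can bind the glucocorticoid receptor.

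Values are log2 of the background-subtracted signal minus the 75th percentile of the array, so that 0 is a spot at that percentile. They compare 1 probe between arrays and do not rank the RNAs against each other. The 10 probes were well above background on 15 of 15 arrays, and 0 were saturated. The number of arrays limits the precision. Control replicate 4 was dim, with its 75th percentile at an intensity of 224.2, where the other arrays had 551.5 to 1061. It also had a median correlation with the other arrays of 0.874, across transcripts, against 0.977 to 0.990 for the rest. Spots well above background made up 60.5% on combined replicate 4, 63.6% on control replicate 4 and 71.5% to 77.4% on the rest. Both of these arrays lay on slide 4. The 9-cisRA arrays lay at position 4 of every slide, so an effect of position cannot be separated from that of 9-cisRA. Position 3 held control replicates 1 to 3, and control replicate 4 was at position 2. Combined arrays occupied only positions 1 and 2. Fits without control replicate 4 therefore compare combined treatment and control with no position in common, and a position effect was not tested.

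No long non-coding RNA passed the test in any comparison of treatments. Against control, 0 of 8 had an adjusted p under 0.05 for mitotane, 9-cisRA or combined treatment (limma), as did 0% of the 20216 transcripts tested. At an unadjusted p under 0.05 there were 0 of 8 for mitotane, where 6.04% of all transcripts reached it, and 0 of 8 for 9-cisRA, where 3.51% did. For combined treatment there were 2 of 8, GAS5 and SNHG5, both higher, against 13.8% of all transcripts, or 11.6% counting the higher ones alone. The estimates nevertheless lay mostly above 0, at 7 of 8 for each treatment. The share of all transcripts above 0 was 61.5% for mitotane, 53.9% for 9-cisRA and 58.7% for combined treatment. Among the 1043 tested RefSeq non-coding identifiers it was 64.0%, 46.6% and 66.0%. These 3 comparisons share the control arrays.

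**Figure D1:**
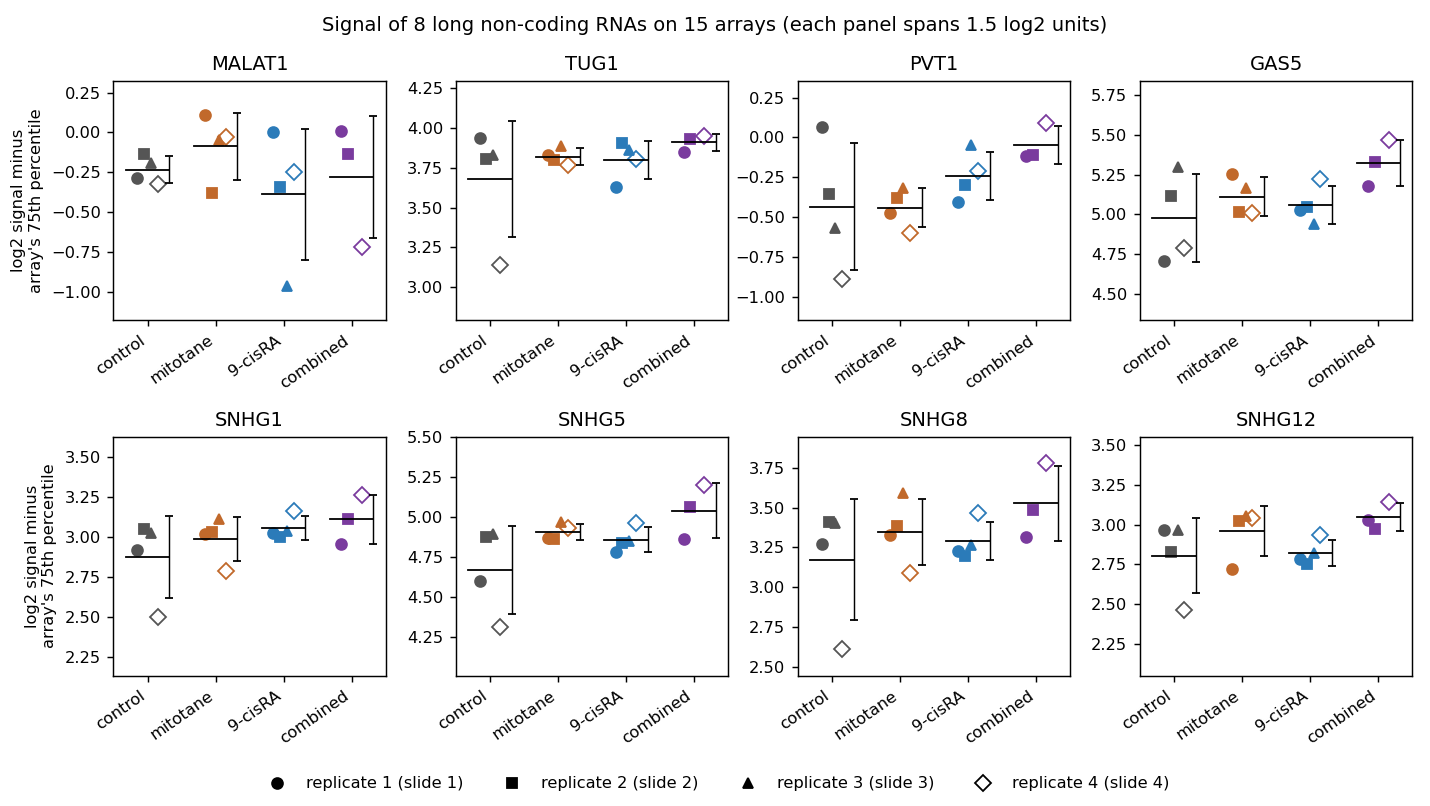
Log2 signal minus the array's 75th percentile (vertical axis) of 8 long non-coding RNAs in the 4 groups (horizontal axis), with 1 marker per array, the mean as a line and the SD as a bar beside it; all panels span the same range. Control replicate 4, the open grey diamond, is the lowest of the 15 arrays for 6 of the 8 RNAs, and combined replicate 4, the open purple diamond, is the highest for 7.

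MALAT1 showed no change past the test under any treatment, and the sign of its combined estimate turned when combined replicate 4 was left out. Its log2 signals were -0.28, -0.14, -0.19 and -0.32 on control replicates 1 to 4. Under mitotane they were 0.11, -0.38, -0.05 and -0.03. Under 9-cisRA they were 0.01, -0.34, -0.96 and -0.25, and under combined treatment 0.01, -0.14 and -0.72 on replicates 1, 2 and 4. The controls lay close together, while 9-cisRA replicate 3 and combined replicate 4 were low and every pair of groups overlapped. The log2 change was 0.15 ± 0.21 (SE) for mitotane (n = 4 against 4), -0.15 ± 0.21 for 9-cisRA (n = 4 against 4) and -0.05 ± 0.23 for combined treatment (n = 3 against 4). Adjusted p-values were 0.800, 0.771 and 0.925 (limma). The 95% intervals ran from -0.30 to 0.59, from -0.60 to 0.29 and from -0.53 to 0.44. Without combined replicate 4 the combined estimate was 0.17, and without control replicate 4 it was -0.08. MALAT1 was higher under mitotane than under 9-cisRA on 3 of 4 slides, by 0.30 ± 0.21 (adjusted p = 1.00, limma).

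TUG1 did not pass the test under any treatment. Its brighter probe read 3.94, 3.81, 3.83 and 3.14 on the 4 control arrays and 3.83, 3.80, 3.89 and 3.77 under mitotane. It read 3.63, 3.90, 3.86 and 3.81 under 9-cisRA and 3.85, 3.93 and 3.95 under combined treatment. Control replicate 4 was far below the other arrays, and the groups overlapped in every comparison. With all arrays the log2 change was 0.14 ± 0.16 (SE) for mitotane, 0.12 ± 0.16 for 9-cisRA and 0.23 ± 0.17 for combined treatment, none past the test (adjusted p = 0.762, 0.770 and 0.561, limma). Without control replicate 4 these became -0.04, -0.06 and 0.05. The 95% intervals then ran from -0.24 to 0.16, from -0.26 to 0.14 and from -0.17 to 0.27. The SD of TUG1 within groups was 0.20 over 15 arrays, at percentile 14.8 of the tested transcripts, whose median was 0.31. Over those 14 arrays it was 0.08, at percentile 1.04, against a median of 0.21, so the rank turned on the array where TUG1 itself stood far off. Spread and brightness of a probe were not separated in that rank. The dimmer TUG1 probe gave changes of -0.01, 0.08 and 0.06 for the 3 treatments with all arrays, and -0.17, -0.08 and -0.11 without control replicate 4.

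PVT1 was estimated at 0.39 ± 0.19 (SE) on the log2 scale, or 1.31-fold, for combined treatment against control, and it did not pass (adjusted p = 0.385, limma). Its brighter probe read 0.06, -0.35, -0.57 and -0.89 in control and -0.48, -0.38, -0.32 and -0.60 under mitotane. It read -0.41, -0.30, -0.05 and -0.21 under 9-cisRA, and -0.12, -0.11 and 0.09 under combined treatment. The controls spread over most of the range of the treated arrays. Without control replicate 4 the combined estimate was 0.24, and without combined replicate 4 as well it was 0.17. The means were -0.44 ± 0.40 (SD, n = 4) in control, -0.44 ± 0.12 under mitotane (n = 4), -0.24 ± 0.15 under 9-cisRA (n = 4) and -0.05 ± 0.12 under combined treatment (n = 3). All 3 combined arrays lay above all 4 mitotane arrays, a difference of 0.40 ± 0.19 (adjusted p = 1.00, limma), and they still did with combined replicate 3 in the value table. Groups that did not overlap in this direction were seen for 6.54% of all transcripts in this comparison.

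The dimmer PVT1 probe did not follow the brighter one. It read -2.87, -3.00, -2.85 and -2.78 in control, -2.62, -2.66, -2.24 and -2.64 under mitotane, -2.56, -3.26, -3.07 and -3.03 under 9-cisRA, and -2.55, -2.81 and -2.52 under combined treatment. At this probe all 4 mitotane arrays lay above all 4 controls, as for 3.56% of all transcripts, whereas the groups overlapped at the brighter one. The difference was 0.34 ± 0.16 (SE; adjusted p = 0.712, limma, with the second probes added to the fit). Combined treatment minus mitotane was -0.09 ± 0.17 (SE) here against 0.40 at the brighter probe. Mitotane minus 9-cisRA was 0.44 ± 0.16 here (unadjusted p = 0.0157, adjusted p = 0.850, limma) and -0.20 ± 0.18 at the brighter probe (adjusted p = 1.00). Over 15 arrays the PVT1 probes had Pearson r = -0.07 and Spearman rho = -0.13, and over 14 without control replicate 4 Pearson r = -0.10. The TUG1 probes had r = 0.86 and rho = 0.56 over 15 arrays, and r = 0.59 and rho = 0.46 over 14. The arrays share labelling and scaling, so these are descriptions. Where in the transcript each probe lies was not analysed here.

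**Figure D2:**
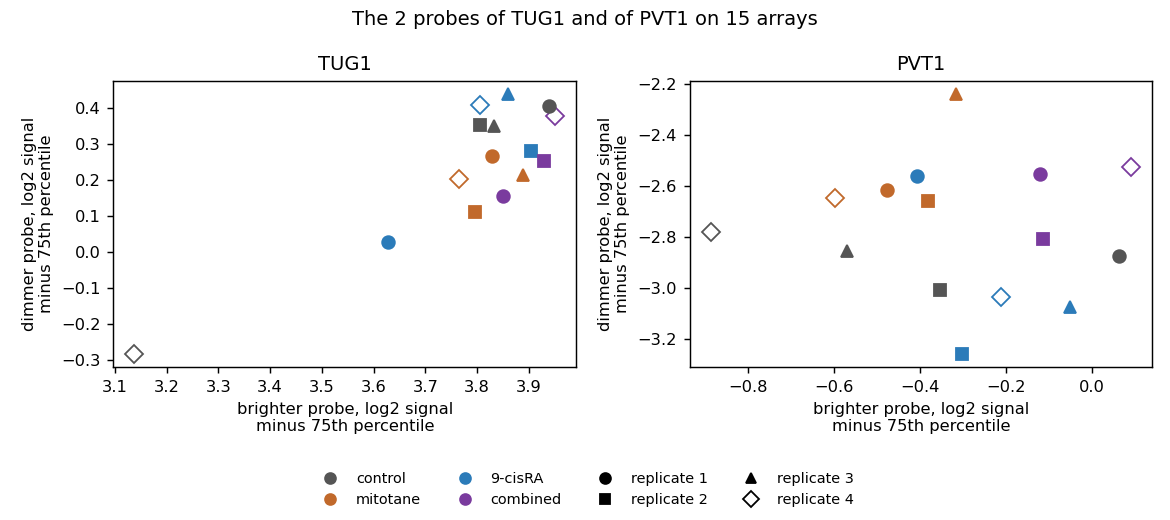
Log2 signal minus the array's 75th percentile at the brighter (horizontal axis) and the dimmer probe (vertical axis) of TUG1 and PVT1, with 1 marker per array, coloured by group and shaped by replicate. The TUG1 probes run together, less closely without control replicate 4 at the lower left (r = 0.86 over 15 arrays and 0.59 over 14). The PVT1 probes do not run together (r = -0.07 over 15 arrays).

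With all arrays, the 5 small nucleolar RNA hosts had their highest group mean under combined treatment and their lowest in control, as did TUG1. Without control replicate 4 the control mean was lowest for GAS5 and SNHG5 but not for SNHG1, SNHG8 and SNHG12, whose changes were -0.01 and -0.01 under mitotane for SNHG1 and SNHG8, and -0.07 and -0.10 under 9-cisRA for SNHG8 and SNHG12. Without combined replicate 4 as well, SNHG1 was lower under combined treatment than under 9-cisRA, by a log2 difference of -0.02. GAS5 read 4.71, 5.11, 5.30 and 4.79 in control and 5.26, 5.02, 5.17 and 5.01 under mitotane. It read 5.02, 5.05, 4.94 and 5.22 under 9-cisRA and 5.18, 5.33 and 5.47 under combined treatment. Control replicates 1 and 4 were the lowest of all arrays, while control replicate 3 lay within the combined range. The log2 change of GAS5 was 0.14 ± 0.15 (SE) for mitotane, 0.08 ± 0.15 for 9-cisRA and 0.35 ± 0.16 for combined treatment. Adjusted p-values were 0.756, 0.825 and 0.361 (limma). The combined difference corresponds to 1.27-fold, with a 95% interval of 1.00-fold to 1.62-fold.

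SNHG5 showed the same order of groups. Control arrays read 4.60, 4.88, 4.90 and 4.31, and mitotane arrays 4.87, 4.86, 4.97 and 4.93. The 9-cisRA arrays read 4.78, 4.84, 4.85 and 4.97, and the combined arrays 4.86, 5.06 and 5.20. Control replicates 1 and 4 were again lowest, and control replicates 2 and 3 overlapped each treated group. The log2 change was 0.24 ± 0.14 (SE) for mitotane, 0.19 ± 0.14 for 9-cisRA and 0.37 ± 0.16 for combined treatment. None passed (adjusted p = 0.713, 0.744 and 0.321, limma). For combined treatment the 95% interval on the log2 scale was 0.04 to 0.70, without adjustment for the number of transcripts.

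SNHG12 was the only one of the 8 RNAs whose combined arrays all lay above all controls, against 12.7% of all transcripts that did so. It read 2.96, 2.82, 2.96 and 2.46 in control and 3.03, 2.97 and 3.14 under combined treatment. The gap was small, with the lowest combined array at 2.97 and the highest control at 2.96. In the value table, which includes combined replicate 3, the groups overlapped. Under mitotane the signals were 2.72, 3.02, 3.05 and 3.04, and under 9-cisRA 2.78, 2.75, 2.82 and 2.93. Mitotane replicate 1 thus stood below the other mitotane arrays. The log2 change against control was 0.16 ± 0.14 (SE) for mitotane, 0.02 ± 0.14 for 9-cisRA and 0.24 ± 0.15 for combined treatment (adjusted p = 0.729, 0.960 and 0.489, limma). Combined treatment exceeded 9-cisRA by 0.22 ± 0.15 (adjusted p = 0.742, limma). All 3 combined arrays lay above all 4 of 9-cisRA, also with combined replicate 3 in the value table, as did 11.6% of all transcripts on the 15 arrays.

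SNHG1 and SNHG8 varied together and did not separate the groups. SNHG1 ranged from 2.50 to 3.05 in control, 2.79 to 3.11 under mitotane, 3.00 to 3.17 under 9-cisRA and 2.96 to 3.26 under combined treatment. SNHG8 ranged from 2.61 to 3.41 in control, 3.09 to 3.59 under mitotane, 3.20 to 3.47 under 9-cisRA and 3.32 to 3.78 under combined treatment. In both, control replicate 4 was the lowest array and combined replicate 4 the highest. Combined treatment against control gave a log2 change of 0.24 ± 0.16 (SE) for SNHG1 and 0.36 ± 0.20 for SNHG8 (adjusted p = 0.511 and 0.449, limma). The single agents gave 0.11 ± 0.14 and 0.18 ± 0.14 for SNHG1, and 0.18 ± 0.19 and 0.12 ± 0.19 for SNHG8, with mitotane named before 9-cisRA. None of these passed (adjusted p between 0.744 and 0.801, limma).

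The upward estimates rested largely on slide 4, which held both arrays that stood apart. On that slide mitotane exceeded control for 8 of 8 RNAs, with a median difference of 0.39 on the log2 scale. On slides 1, 2 and 3 it did so for 5, 1 and 7 of 8, with medians of 0.08, -0.02 and 0.09. For 9-cisRA the count was 8 of 8 on slide 4, with a median of 0.66, and 4, 2 and 3 of 8 on the other slides, with medians of 0.03, -0.06 and -0.09. For combined treatment it was 7 of 8 on slide 4, with a median of 0.79, against 6 of 8 and 0.05 on slide 1 and 7 of 8 and 0.13 on slide 2. Control replicate 4 lay below the mean of the other controls for 8 of 8 RNAs, by between 0.12 for MALAT1 and 0.75 for SNHG8. Over all tested transcripts its median deviation was -0.32, so the 8 RNAs were not alone in lying low on that array. Shares over all transcripts within a slide are not given here, so the counts by slide do not set the 8 RNAs apart from the rest.

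Without control replicate 4, the median change of the 8 RNAs was 0.02 for mitotane, -0.02 for 9-cisRA and 0.15 for combined treatment, against 0.14, 0.12 and 0.29 with it. The median over all transcripts was 0.09, 0.03 and 0.09 with all arrays and 0.08, 0.02 and 0.08 without control replicate 4. Estimates above 0 then numbered 4 of 8, 4 of 8 and 7 of 8, where 64.4%, 53.6% and 60.9% of all transcripts lay above 0. At the brighter probes, an unadjusted p under 0.05 was reached by 0 of 8 in each, and by 7.68%, 4.34% and 18.3% of all transcripts. The dimmer PVT1 probe reached it for mitotane, with a log2 change of 0.37 (adjusted p = 0.616, limma). Without combined replicate 4 as well, 8 of 8 combined estimates were above 0 (61.7% of all transcripts) but small, between 0.03 for TUG1 and 0.21 for GAS5, with a median of 0.11 (adjusted p from 0.583, limma). In that fit 11.7% of all transcripts had an unadjusted p under 0.05 and 0 of 8 of these RNAs. With the control mean over 3 arrays, SNHG5 was 4.79 ± 0.17 (SD) in control and 4.96 ± 0.14 on the other 2 combined arrays. GAS5 was 5.04 ± 0.30 in control and 5.25 ± 0.11 on those 2 arrays. The 2 values at an unadjusted p under 0.05, GAS5 and SNHG5, also both missed it without combined replicate 2 or without combined replicate 4. Over 28 alternative settings, which use largely the same arrays, GAS5 reached it in 4 and SNHG5 in 16. Depending on the setting, 6.49% to 42.3% of all transcripts reached it. In the value table of 16 arrays, which adds combined replicate 3, 0 of 8 RNAs reached it and 15.5% of all transcripts did. With the slide as a block SNHG5 had an unadjusted p of 0.0384 and GAS5 0.0622 (limma). So 1 of 8 had one under 0.05, near the share of all transcripts, which was 12.6%.

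**Figure D3:**
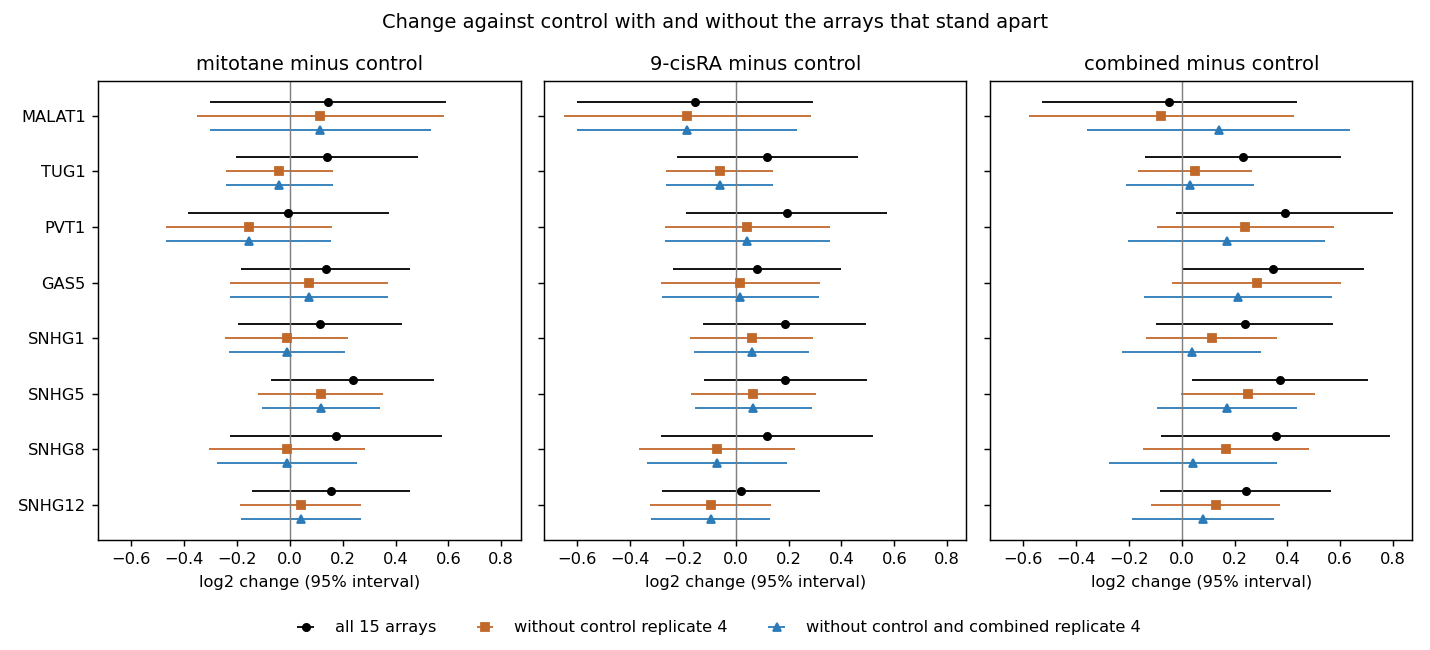
Log2 change against control (horizontal axis) with its 95% interval for 8 long non-coding RNAs (vertical axis) under 3 treatments, from all 15 arrays (circles), without control replicate 4 (squares) and without control and combined replicate 4 (triangles). The combined median over the 8 RNAs is 0.29 for the circles, 0.15 for the squares and 0.11 for the triangles, and no RNA passed after adjustment over all transcripts.

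The other comparisons gave no RNA past the test either. Combined treatment minus mitotane lay between -0.19 for MALAT1 and 0.40 for PVT1, with a median of 0.13 against 0.01 over all transcripts. Of these, 7 of 8 were above 0 (52% of all transcripts) and 0 of 8 had an unadjusted p under 0.05 (4.75% of all transcripts did). Without control replicate 4 PVT1 alone reached it there, among 11.5% of all transcripts, at an adjusted p of 0.331 (limma). Combined treatment minus 9-cisRA lay above 0 for 8 of 8 RNAs (59.4% of all transcripts), between 0.05 for SNHG1 and 0.27 for GAS5. Of the 1043 tested RefSeq non-coding identifiers, 76.9% lay above 0, with a median of 0.20 against 0.19 for the 8 RNAs. In the value table of 16 arrays 7 of 8 did. At the brighter probes 0 of 8 had an unadjusted p under 0.05 (9.47% of all transcripts). Without control replicate 4 the dimmer PVT1 probe had one, among 19% of all transcripts, at an adjusted p of 0.252 (limma). Mitotane minus 9-cisRA lay between -0.20 for PVT1 and 0.30 for MALAT1, above 0 for 6 of 8 (59.2%) and at an unadjusted p under 0.05 for 0 of 8 (4.84%) at the brighter probes, although the dimmer PVT1 probe reached it. The interaction, which is the departure of the combined change from the sum of both single changes on the log2 scale, lay between -0.06 for SNHG1 and 0.20 for PVT1, with 4 of 8 above 0 (50.2%) and a median of 0.02. Its SE was 0.21 to 0.31, and 0 of 8 had an unadjusted p under 0.05 (3.71% of all transcripts). Adjusted p-values of the interaction ran from 0.965 to 0.991 (limma). Without control replicate 4 it lay between -0.01 for MALAT1 and 0.35 for PVT1, with 7 of 8 above 0 and a median of 0.17 against 0.01 over all transcripts. Adjusted p-values then ran from 0.780 to 0.998 (limma). Without combined replicate 4 as well, 6 of 8 were above 0 and the median was 0.13 against 0.01 over all transcripts. In these fits of the interaction, an unadjusted p under 0.05 was reached by 0 of 8 RNAs and by 6.94% and 7.2% of all transcripts. The share of all transcripts above 0 is not given here for them.

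Across the 15 arrays the small nucleolar RNA hosts varied together. By Pearson r with all arrays, TUG1, which is not one of them, followed most of them as closely. That likeness of TUG1 was weak without control and combined replicate 4. MALAT1 followed none of the other RNAs closely. Over 15 arrays the 10 pairs of hosts had a median Pearson r of 0.76, from 0.47 for GAS5 with SNHG12 to 0.95 for SNHG1 with SNHG8. TUG1 had r from 0.46 with GAS5 to 0.82 with SNHG8. Its Spearman rho ran from 0.31 with SNHG5 to 0.48 with SNHG8, against 0.34 to 0.87 for the pairs of hosts. The 15 pairs of a host with another listed RNA had a median Pearson r of 0.51. The median r of a host with the tested transcripts outside the list was between 0.13 for GAS5 and 0.24 for SNHG8. Without control and combined replicate 4, over 13 arrays, the median was 0.12 for a host with another listed RNA and 0.47 for the pairs of hosts. The highest were then SNHG1 with SNHG8 (Pearson r = 0.82, Spearman rho = 0.80) and GAS5 with SNHG5 (r = 0.81, rho = 0.63). On these 13 arrays SNHG12 had r between -0.16 and 0.29 with the other hosts. TUG1 had r from -0.01 with GAS5 to 0.31 with SNHG8. TUG1 and PVT1, each at its brighter probe, had r = 0.76 over 15 arrays and r = 0.56 over 13. MALAT1 ran opposite to the brighter PVT1 probe, with r = -0.41 over 15 arrays and r = -0.45 over 13. The dimmer PVT1 probe, which did not follow the brighter one, is not covered by these values. The correlations are descriptions, since the arrays share labelling, scaling and treatment.

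**Figure D4:**
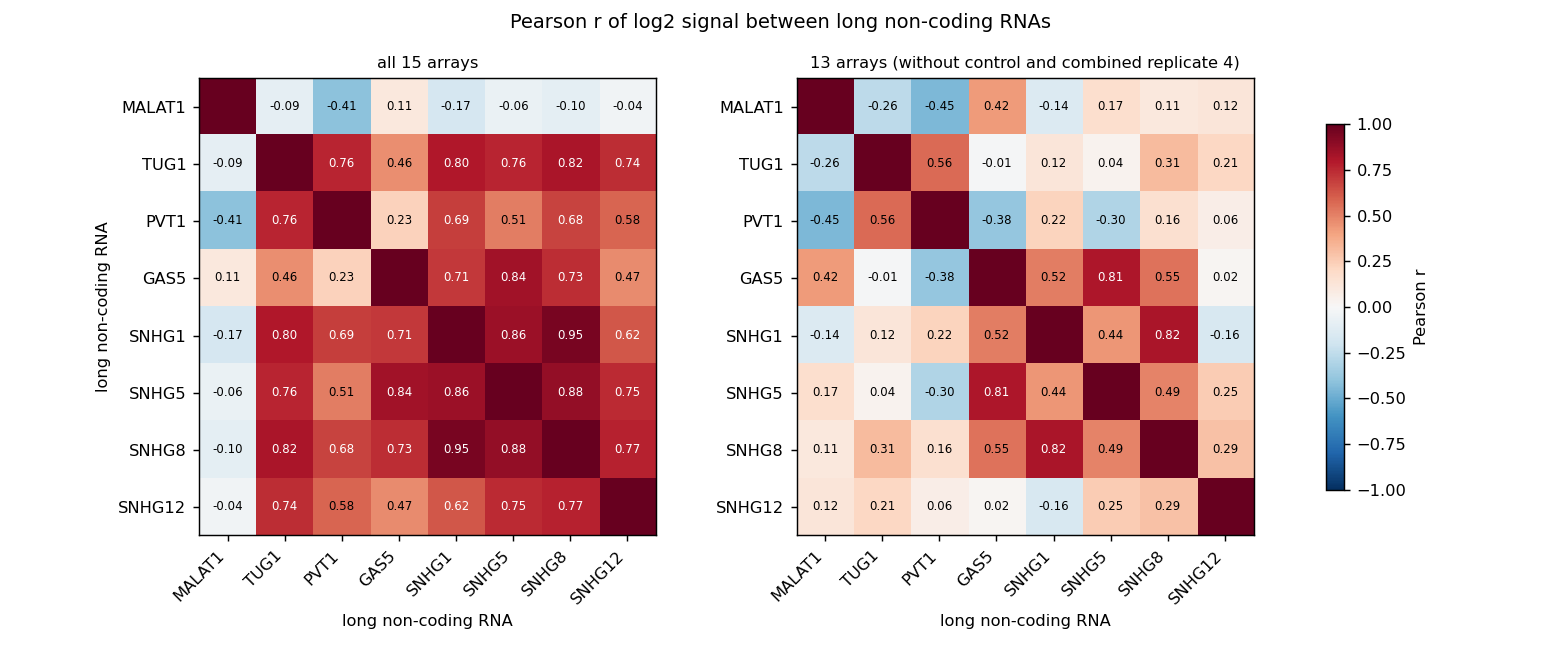
Pearson r of log2 signal between pairs of 8 long non-coding RNAs (both axes) over 15 arrays (left) and over 13 arrays without control and combined replicate 4 (right), with colour and number giving r. The high values among TUG1, PVT1 and the hosts on the left are mostly lower on the right, while SNHG1 with SNHG8 (0.82) and GAS5 with SNHG5 (0.81) stay high.

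Of all transcripts outside the list, the pattern closest to any of the 8 RNAs over 15 arrays was that of NM_006347, which had Pearson r = 0.97 with TUG1, or 0.84 without control replicate 4. The next was NR_037701 with the brighter PVT1 probe, at r = 0.97 with all arrays and 0.95 over 14. These are the highest of 20216 transcripts and so are high by selection. The choice also depended on control replicate 4. Without it another transcript was closest to TUG1, at r = 0.91, and the highest r of any of the 8 RNAs was that of SNHG5, at 0.99. The median r over the other tested transcripts was 0.27 with TUG1 and 0.14 with PVT1, and 0.03 and 0.02 without control replicate 4.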

How the data were processed

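Tumour RNA carrying the dye Cy3 was read on 1-colour arrays of a human design. The 15 deposited scanner files hold a background-subtracted intensity for every spot, not scaled between arrays, written by Feature Extraction 11.0.1 per the submitters' processing notes. For 16 arrays the authors also deposited processed log2 values, centred near 0 per probe, with no account of the steps in the labels or headers used here. After centring each transcript, these correlated with the scanner data at r = 0.999 over 20216 transcripts and 15 arrays. Which arrays and spots their centring and scaling used is not known here. Their column medians over these transcripts ran from -0.03 to 0.06, except -0.43 on control replicate 4.

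Each processed signal was put on the log2 scale and the 75th percentile over the 43118 spots of that array that are not controls was subtracted. Spots marked as outliers were left out, except where all spots of a probe on an array were marked, when all were kept. Among the listed RNAs 0 values were kept in this way. The brightest probe stood for an identifier. Testing required that, in 1 group or more, no array had a spot of the probe that was not well above background. The 4 groups were fitted as group means in limma 3.58.1 (R 4.3.3), with two-sided p-values adjusted by the Benjamini-Hochberg method over all tested transcripts. The fit was tested on simulated data. Plots were drawn with matplotlib 3.10.9, and files were read with data.table (version 1.17.8).

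The 9 listed RNAs were all to be named. The list sets no condition on a measured value, but whoever drew it up knew earlier results of these data, so the choice of RNAs and of the other lists is not independent of them. Per RNA, the 1 other transcript with the highest Pearson r was also computed, and the identifiers of the closest pairs are printed. The files pair probes with accessions only, and 0 of 29094 identifiers matched the mouse gene table at hand. The lists for paraspeckle proteins, nonsense-mediated decay, terminal oligopyrimidine genes, splicing factors, other long non-coding RNAs, adrenocortical cells, endothelium, macrophages and fibroblasts were therefore not tested, and the tumour label was not checked against markers. The alternatives changed the background correction, scaling, filter, rule for probes, array weights, slide block or arrays, or used the processed values. The mean spot signal is not among the columns used, so the normexp alternative used median signals. Slides were taken from the sample titles. Arrays of the same slide did not deviate together more clearly than arrays of different slides. Correlations lay between -0.27 and 0.37 over 21 pairs on the same slide, with a median of 0.01 and 7 above 0.1. They lay between -0.42 and 0.48 over 63 pairs on different slides, with a median of -0.02 and 18 above 0.1.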

Additional observations from a re-analysis of the deposited data

Results flagged for a closer look

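Each of 24 sets of 4 arrays, that is 8 RNAs in control, mitotane and 9-cisRA, was checked for an array far from the rest of its group. Chance marks about 1 in 20 such sets. The combined group, with 3 scanner files, was not covered. TUG1 on control replicate 4 was marked, at a log2 signal of 3.14 against 3.81 to 3.94 on the other controls. SNHG12 on mitotane replicate 1 was marked, at 2.72 against 3.02 to 3.05 on the other mitotane arrays.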

How the results depend on the processing

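None of the 8 RNAs passed in any of 28 alternative settings, 25 of them planned and 3 chosen after seeing the data, over the 7 comparisons. The count of transcripts past the adjusted threshold stayed 0 in each comparison except as follows. With limma's array weights it was 3 for mitotane, 4 for 9-cisRA and 5788 for combined treatment against control, 103 for combined against mitotane and 2003 for combined against 9-cisRA. Control replicate 2 then weighed 8.81 and control replicate 4 weighed 0.0351. Leaving out single arrays gave 0 to 1 for combined against mitotane and 0 to 8 for mitotane against 9-cisRA, both raised only without mitotane replicate 2. The value table of 16 arrays without control replicate 4 gave 1 for combined against mitotane. The cause was not tested. With the slide as a replicate block the count was 0 in all 7 comparisons, the block changed no call after adjustment, and 1078, 732 and 2553 transcripts had an unadjusted p under 0.05 for mitotane, 9-cisRA and combined treatment against control, against 1221, 710 and 2787 without it. With the block SNHG5 had a log2 change of 0.40 under combined treatment and GAS5 one of 0.38, and GAS5 no longer had an unadjusted p under 0.05. Among the 56 changes of the RNAs, 16 of 1560 alternative values moved by more than the SD within groups, none of them past the threshold. The number of combined estimates against control at an unadjusted p under 0.05 was 2, and 0 to 3 over all settings. Of all transcripts, 6.49% to 42.3% reached it in the alternative settings. With 15 arrays the SE of a change against control was 0.14 to 0.23 on the log2 scale.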

Other observations

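Combined replicate 3 was read only in the series value table, whose log2 values are centred near 0 for each probe. There it stood at 0.00 for GAS5, -0.03 for SNHG5, -0.10 for SNHG1, -0.13 for SNHG8, 0.01 for SNHG12, -0.14 for TUG1, 0.06 for PVT1 and -0.17 for MALAT1. The other combined arrays stood at 0.03, 0.19 and 0.33 for GAS5 and at -0.03, 0.17 and 0.31 for SNHG5. With all 16 arrays and no array left out, the median combined change of the 8 RNAs was 0.24, and without control replicate 4 it was 0.07, equal at 2 decimals to the median over all transcripts.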
